A study of Mus musculus with 20 samples.

Results

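The regions described here are 1027 sites that the ATF4 peak list of thapsigargin-treated cells holds far out between genes. A site was taken when it shared no base with a peak of the DMSO list, when its centre lay outside every protein-coding gene, and when that centre was more than 50 kb from the nearest end of such a gene. They are 1027 of the 8619 peaks of the thapsigargin list (11.9%) and of the 7822 that no DMSO peak overlapped (13.1%). Absence from the DMSO list and position chose the sites, so the sites were selected on both, which are descriptions here and not findings. Of all thapsigargin peaks 90.8% had no DMSO overlap, and of the 1115 that lay this far out 92.1% had none.

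CUT&Tag, which tags the DNA beside an antibody-bound protein with a transposase, was done on wild-type C2C12 cells, an established line of mouse myoblasts. The cells had been given 100 nM thapsigargin, which stops calcium uptake into the endoplasmic reticulum (ER), for 6 h, or DMSO for 6 h, for which the labels also write 100 nM. Each treatment had 2 ATF4 samples, but each is represented by 1 peak list with positions only, so there was no height, no value per sample and no replicate error, and read depth is unknown. The other 8 of the 10 groups (CHOP, CEBPβ, CEBPγ and acetylated histone H3) were not analysed here. The lists hold no expression, so the identity of the cells was not checked.

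ATF4 is a bZIP transcription factor made in larger amounts when ER stress or amino acid shortage slows translation through phosphorylation of eIF2. It binds DNA as a dimer with other bZIP proteins, above all C/EBP family members, at composite elements that join a C/EBP and an ATF sequence, and is best known for sites close to the genes of amino acid metabolism and stress response. Sites far from protein-coding genes can be enhancers, which act on genes over long distances, or promoters of long non-coding RNAs (lncRNAs), some of which are the precursors of microRNAs. The gene nearest to a distal site need not be the gene it acts on, and the names below give position only.

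Only at lncRNA promoters could the DNA under these sites be read here. RefSeq promoter windows (GRCm38.p6, to which the files' build mm10 corresponds) run from 250 bases before to 50 after a start site. They overlapped 36 of the 1027 sites (3.51%), and all 38 genes concerned were lncRNA genes. The 50 kb rule left no promoter of a protein-coding gene to be met, and no background share was computed for the 3.51%. For 25 of these genes a window lay wholly inside a site. The 6 windows below were chosen for position or motif. That of Gm14321 lies in a site centred 87.1 kb from the stress regulator gene Cebpb. The others lie at microRNA precursors or carry the bZIP motifs that the counts rest on. Capitals mark matches to any of 4 motifs, which were the C/EBP-ATF composite TGATGNAA, the cyclic AMP response element TGACGTCA, the AP-1 element TGANTCA and the C/EBP element TTNNGCAA, on either strand.
Gm14321, chr2:167777241-167777540, plus strand: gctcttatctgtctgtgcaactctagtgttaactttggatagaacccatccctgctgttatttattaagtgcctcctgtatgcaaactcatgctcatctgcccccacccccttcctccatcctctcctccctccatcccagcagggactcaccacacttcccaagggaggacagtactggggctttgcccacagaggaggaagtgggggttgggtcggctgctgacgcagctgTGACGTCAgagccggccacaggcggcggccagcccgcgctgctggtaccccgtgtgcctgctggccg
A530046M15Rik, chr13:15806993-15807292, plus strand: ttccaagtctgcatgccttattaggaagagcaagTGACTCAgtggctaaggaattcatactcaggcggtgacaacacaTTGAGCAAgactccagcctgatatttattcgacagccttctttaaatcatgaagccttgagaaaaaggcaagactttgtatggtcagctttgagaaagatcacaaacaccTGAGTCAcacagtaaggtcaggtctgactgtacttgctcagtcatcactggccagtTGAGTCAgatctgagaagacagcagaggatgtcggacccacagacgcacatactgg
4930554I06Rik, chr19:21104460-21104759, plus strand: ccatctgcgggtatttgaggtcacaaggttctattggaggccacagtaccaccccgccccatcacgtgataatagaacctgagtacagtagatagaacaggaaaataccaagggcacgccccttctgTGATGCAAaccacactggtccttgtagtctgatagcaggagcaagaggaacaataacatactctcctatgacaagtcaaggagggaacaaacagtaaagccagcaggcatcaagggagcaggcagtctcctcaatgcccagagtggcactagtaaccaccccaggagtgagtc
Dleu2, chr14:61682324-61682623, minus strand: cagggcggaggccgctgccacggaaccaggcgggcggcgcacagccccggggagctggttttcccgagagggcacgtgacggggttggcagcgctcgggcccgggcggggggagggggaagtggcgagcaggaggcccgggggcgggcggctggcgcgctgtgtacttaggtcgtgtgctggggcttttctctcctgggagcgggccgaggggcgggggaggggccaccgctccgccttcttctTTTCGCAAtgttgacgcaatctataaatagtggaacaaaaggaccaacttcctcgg
Mir100hg, chr9:41474643-41474942, plus strand: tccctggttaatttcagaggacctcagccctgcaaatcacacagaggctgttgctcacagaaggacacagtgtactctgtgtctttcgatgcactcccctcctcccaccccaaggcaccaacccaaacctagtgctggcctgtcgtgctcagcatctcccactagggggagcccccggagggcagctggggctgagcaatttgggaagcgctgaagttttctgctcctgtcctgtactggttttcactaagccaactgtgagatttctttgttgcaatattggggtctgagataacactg
Gm49890, chr4:88941993-88942292, minus strand: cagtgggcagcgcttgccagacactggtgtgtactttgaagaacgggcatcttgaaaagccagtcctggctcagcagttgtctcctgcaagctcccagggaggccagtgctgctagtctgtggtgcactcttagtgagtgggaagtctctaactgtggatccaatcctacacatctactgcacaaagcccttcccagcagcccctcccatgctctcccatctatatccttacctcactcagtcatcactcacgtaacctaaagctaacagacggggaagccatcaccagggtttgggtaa

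In this set the AP-1 element was the most frequent of the 4. Among the 25 genes with a window wholly inside a site, 1 window a gene, it was present in 8 (32.0%, 95% Wilson interval 17.2% to 51.6%), against 300 of 2727 (11%, interval 9.88% to 12.2%) far promoters of non-coding genes outside all thapsigargin peaks and 7.97% of all 26794 promoters. Promoters under any thapsigargin peak held the AP-1 element in 121 of 2293 cases (5.28%). Those under thapsigargin peaks that overlapped a DMSO peak held it in 17 of 236 (7.20%). The 8 were the windows of Gm5546, 4930543I11Rik, Gm32287, A530046M15Rik, LOC115487176, Gm12415, Gm41309 and Gm32011, and that of A530046M15Rik, 77.0 kb from Gli3, held it 3 times. The composite element that ATF4 shares with C/EBP proteins was present in 1 of 25 (4%, interval 0.710% to 19.5%), at 4930554I06Rik. Of the far promoters outside peaks 181 of 2727 (6.64%) held it, a share inside that interval, and of all promoters 3.97%. It was present in 54 of 236 (22.9%, interval 18.0% to 28.6%) promoters under thapsigargin peaks that overlapped a DMSO peak. Under any thapsigargin peak it was present in 113 of 2293 (4.93%). The intervals of 4% and 22.9% overlap at their edges, which does not settle whether these 2 shares differ. Their difference was not tested. The C/EBP element was present in 5 of 25 (20%, interval 8.86% to 39.1%), against 14.6% of the far promoters outside peaks. The cyclic AMP response element was present in 2 (8%, interval 2.22% to 25%), against 0.513% of the far promoters outside peaks, 4.75% (109 of 2293) under any thapsigargin peak and 1.83% of all promoters. These 2 are the overlapping windows of Gm14321 and Gm32287 on opposite strands, and they hold 1 and the same site. A match is a run of letters and not a shown binding site, and the windows of Mir100hg and Gm49890, which matched none of the 4, say only that these letters are not in them. Of the Gm49890 window 296 of the 300 bases lie inside its site.

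Some sites lay at or inside lncRNA genes that contain microRNAs, or close to a microRNA, and these were singled out after their positions had been seen. Those at Dleu2 and Gm49890 were at the 5' end of the host gene. The site at Dleu2 (chr14:61680652-61682984, 2333 bp) covered the promoter of the lncRNA from which miR-15a and miR-16-1 are cut, 48.6 kb from the mature miR-15a. A site of 1334 bp at Gm49890 (chr4:88940955-88942288) lay over the start of the lncRNA that contains miR-31, 30.3 kb from the mature form. Inside Mir100hg, which contains miR-100, let-7a-2 and miR-125b-1, were 2 sites of 1382 bp and 439 bp, the wider one over an internal start site (chr9:41474543-41475924) and the narrower 15.7 kb from miR-100. The second copy of miR-125b, on chromosome 16, had a site of 478 bp (chr16:77644080-77644557) ending 1.72 kb before it, and another of 494 bp lay inside the neighbouring lncRNA Mir99ahg. The mature sequences are shown with the seed, bases 2 to 8, in capitals, because they show which of these RNAs share a seed. The seed of miR-15a and miR-16 is the same, and the 2 loci of miR-125b-5p give the same mature RNA.
mmu-miR-15a-5p: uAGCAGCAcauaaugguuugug
mmu-miR-16-5p: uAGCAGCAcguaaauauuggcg
mmu-miR-31-5p: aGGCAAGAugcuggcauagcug
mmu-miR-100-5p: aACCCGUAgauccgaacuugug
mmu-miR-125b-5p: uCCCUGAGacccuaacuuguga

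Over all 1027 sites, lncRNA genes were the annotation met most often. The centre of 218 sites (21.2%, interval 18.8% to 23.8%) lay inside an lncRNA gene, where 10.7% of the intergenic DNA over 50 kb from protein-coding genes lies, and 64 (6.23%, interval 4.91% to 7.88%) lay within 1 kb of an lncRNA gene end, where 1.44% of that DNA lies. Pseudogenes were met about as often as their share of DNA: 14 sites (1.36%, interval 0.814% to 2.28%) were centred within 1 kb of a pseudogene end, against 1.05% of the DNA. Of the 88 equally distant thapsigargin peaks that overlapped a DMSO peak, 20 (22.7%, interval 15.2% to 32.5%) lay inside an lncRNA gene and 4 (4.55%, interval 1.78% to 11.1%) at an lncRNA gene end, intervals that include the values of the 1027 sites. Intervals of shares in this report are 95% Wilson intervals and cover counting error alone, and the peaks of 1 list are not replicates, so no p-values are given.

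The widest sites at non-coding gene ends, after Dleu2, were at Gm13470 (2077 bp), Gm5546 (1687 bp), the unclassified RNA gene Gm5486 (1449 bp), A230028O05Rik (1336 bp), Gm49890 and Gm35692 (1325 bp). Gm35692, whose end lay 12 bp from the centre of its site, is in the stretch between 1600014C23Rik and Vegfa, which encodes the angiogenic growth factor VEGF-A. Next in width came A630001O12Rik (1307 bp), Gm13481 (1278 bp) and 9330188P03Rik (1267 bp). Of the lncRNA genes that held most sites, Gm31718 between Irf2bp2 and Tomm20 had 6 and 4930455D15Rik near Tslp had 4. The lncRNA genes Pvt1, which lies beside Myc, Gm20125, Gm26843 and Gm8633 had 3 each. Morrbid, an lncRNA next to Bcl2l11, the gene of the pro-apoptotic protein BIM, held 2 sites, and another of 2295 bp was centred 2149 bp outside it; Pvt1 and Morrbid were picked out after their positions had been seen.

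ATF4 sites of the thapsigargin list alone became sparser with distance from genes. There were 2.13 per Mb (exact Poisson interval 1.93 to 2.34) at 50 to 100 kb from a protein-coding gene end, 1.45 (1.30 to 1.62) at 100 to 200 kb, 0.682 (0.589 to 0.784) at 200 to 500 kb, 0.418 (0.324 to 0.532) at 500 to 1000 kb and 0.123 (0.0591 to 0.227) beyond. Nearer to genes the level was flat, with 2.56 per Mb at 20 to 50 kb and 2.80 at 1 to 5 kb, below the 21.9 per Mb within 1 kb. The 50 kb limit therefore falls on a slope and marks no gap in the distribution. Peaks that overlapped a DMSO peak fell off in the same order, with 0.182 per Mb at 50 to 100 kb and 0.0695 at 200 to 500 kb, and made up 7.87% and 9.26% of the peaks there. The share of far peaks was 13.1% in the thapsigargin-only class and 11% among thapsigargin peaks over a DMSO peak, a difference of 2.09 points with an interval of -0.387 to 4.22.

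**Figure D1:**
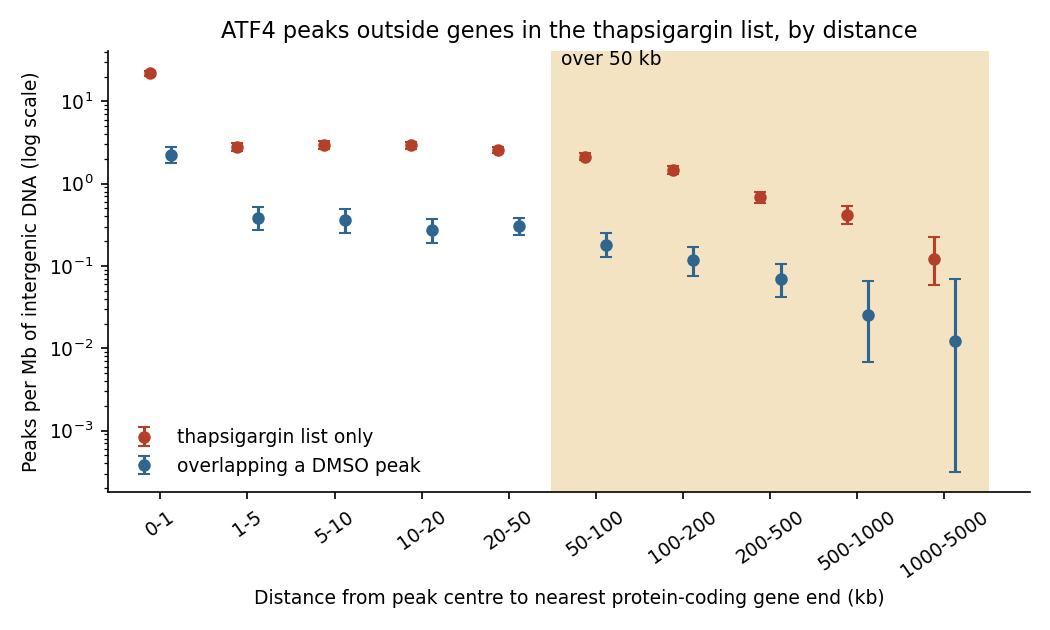
Density of ATF4 peaks of the thapsigargin list outside protein-coding genes, in peaks per Mb of intergenic DNA on a log scale, by distance from the peak centre to the nearest gene end in kb. Red points are peaks of the thapsigargin list alone, blue points those that overlapped a DMSO peak, bars are 95% exact Poisson intervals, and the shaded range holds the 1027 sites, whose density runs from 2.13 per Mb at 50 to 100 kb down to 0.123 per Mb beyond 1000 kb.

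The length of the gene-free stretch went with density as well. At the same distance of 50 to 100 kb there were 2.64 sites per Mb (interval 2.32 to 2.98) in stretches of 100 to 300 kb, 1.96 (1.66 to 2.29) in stretches of 300 to 1000 kb and 0.850 (0.544 to 1.26) in longer ones. Intergenic DNA over 50 kb from genes amounted to 952 Mb in 2781 stretches, of which 592 held a site. It includes assembly gaps and repeats, which were not subtracted. The distance to the nearest protein-coding gene had a median of 118 kb and quartiles of 72.6 and 207 kb, and 76 sites lay more than 500 kb and 10 more than 1000 kb away. The sites just inside the limit were near Akr1b3 (50.09 kb), Ror1 (50.19 kb) and Pde4d (50.55 kb), and those just outside it near Slc35b4 (49.83 kb), Gm38821 (49.69 kb) and Antxr2 (49.68 kb).

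Chromosomes differed in how densely the sites were set. Chromosome X had 8 sites in 77.9 Mb of such DNA, or 0.103 per Mb (interval 0.0443 to 0.202), while the autosomes had 1019, or 1.17 per Mb (interval 1.10 to 1.24). The X chromosome was poor in ATF4 peaks as a whole, with 11.8 thapsigargin peaks per 100 protein-coding genes against 41.2 on the autosomes. Among the autosomes, chromosomes 15 (1.95 per Mb, interval 1.55 to 2.42), 10 (1.93, interval 1.54 to 2.38) and 13 (1.81, interval 1.44 to 2.24) were the densest, and chromosome 5 the sparsest at 0.751 (interval 0.529 to 1.04). These intervals treat sites as independent although some lie in runs.

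**Figure D2:**
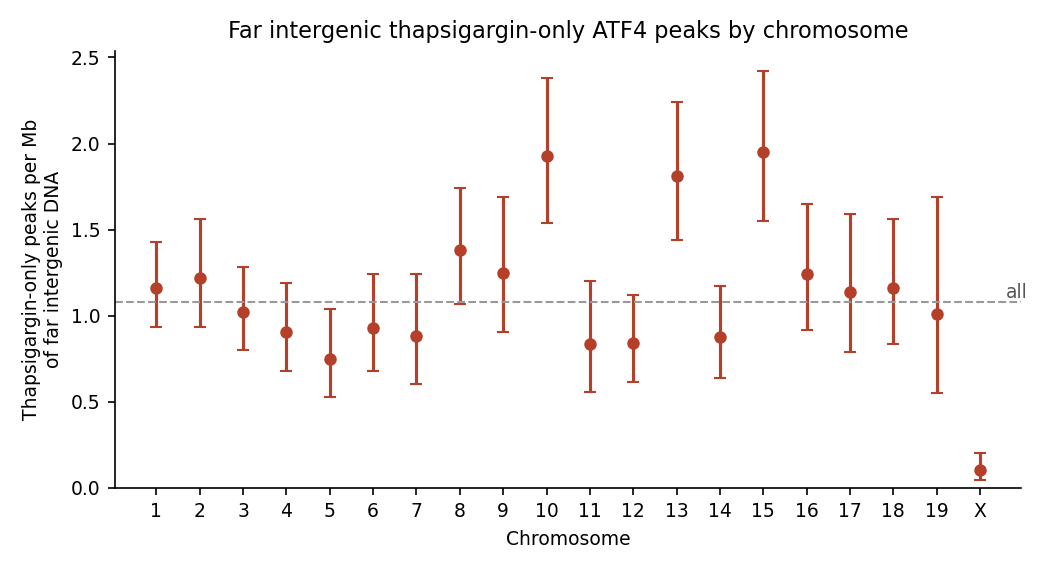
Far intergenic sites of the thapsigargin list alone per Mb of intergenic DNA over 50 kb from protein-coding genes, for chromosomes 1 to 19 and X. Points are values, bars 95% exact Poisson intervals and the dashed line the value of all chromosomes, 1.08 per Mb. Chromosome X lies at 0.103, under every autosome.

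Most of the 1027 sites had no other of these sites within 100 kb, but some gene deserts held many. A gap of at most 100 kb between the centres of neighbouring sites counted as a run. By this measure 583 sites (56.8%) were alone, 236 were in runs of 2 and 208 (20.3%) in 57 runs of 3 or more. Other thapsigargin peaks were not counted in runs, so a site called alone can have such a peak close by. Another thapsigargin peak lay within 10 kb of 7.79% (80 of 1027). The share was 12.3% in the whole list and 15.8% (259 of 1642) among thapsigargin-only intergenic peaks at 1 to 50 kb from genes. The difference from these nearer peaks was -7.98 points (Newcombe interval -10.4 to -5.52). The 50 kb rule keeps peaks inside or at coding genes out of the 10 kb window. A lower share therefore follows in part from the selection, and the share at the local peak density was not computed. Sites in runs of 3 or more had a median width of 1086 bp and those alone 976.0 bp.

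The fullest desert was that between Myc, the gene of a transcription factor of growth and proliferation, and Gsdmc on chromosome 15, with 15 sites in 1786 kb. The longest run, of 9 sites, lay in it at 233 to 669 kb from Myc (chr15:62222486-62659290). Their widths were 1275, 1334, 1080, 1608, 757, 1859, 1507, 917 and 729 bp from the Myc side outwards. Within the run were also 2 peaks that overlapped DMSO peaks, so this desert was not empty of ATF4 peaks in DMSO. A second run, of 8 sites in 203 kb, lay between Irf2bp2, a transcriptional corepressor gene, and Tomm20, the gene of a receptor for mitochondrial protein import (chr8:126665764-126868706). In it 2 sites were nearest to Irf2bp2 and 6 to Tomm20, with widths of 348 to 1805 bp. There was no DMSO-overlapping peak inside this span.

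Runs of 7 sites were found in the stretch between Klf4 and Actl7b (chr4:56224452-56411601) and in that between Pgrmc2 and Jade1 (chr3:41182204-41377522). Klf4 encodes a Krüppel-like transcription factor and Actl7b an actin-like protein of the testis. The sites of that run were 692 to 879 kb from Klf4 and 329 to 515 kb from Actl7b, and this stretch held 10 sites in all. The run near Pgrmc2, which encodes a heme-binding membrane protein, lay 99.8 to 294 kb from that gene and 179 to 373 kb from Jade1, a chromatin factor gene. Its nearest DMSO peaks were 4054 kb away or more.

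Runs of 5 followed at 3 places. Between 1600014C23Rik and Vegfa (chr17:45798418-45867858) the sites were 150 to 218 kb from Vegfa, and the one of 2303 bp was among the 10 widest of all. Beside Trib1, which encodes a pseudokinase that directs C/EBP proteins to degradation, 5 sites of 936 to 1267 bp lay 66.0 to 166 kb from the gene (chr15:59722617-59823919). The third run lay between Ndfip2 and Spry2, an inhibitor of receptor tyrosine kinase signalling, with sites of 661 to 1406 bp (chr14:105588205-105732872). Cited2, which encodes a co-regulator that binds CBP and p300, had 9 sites in its desert at 174 to 1215 kb, too far apart to form a run of this length. Zfp703, a transcriptional regulator gene, was nearest to 6 sites at 55.5 to 347 kb.

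**Figure D3:**
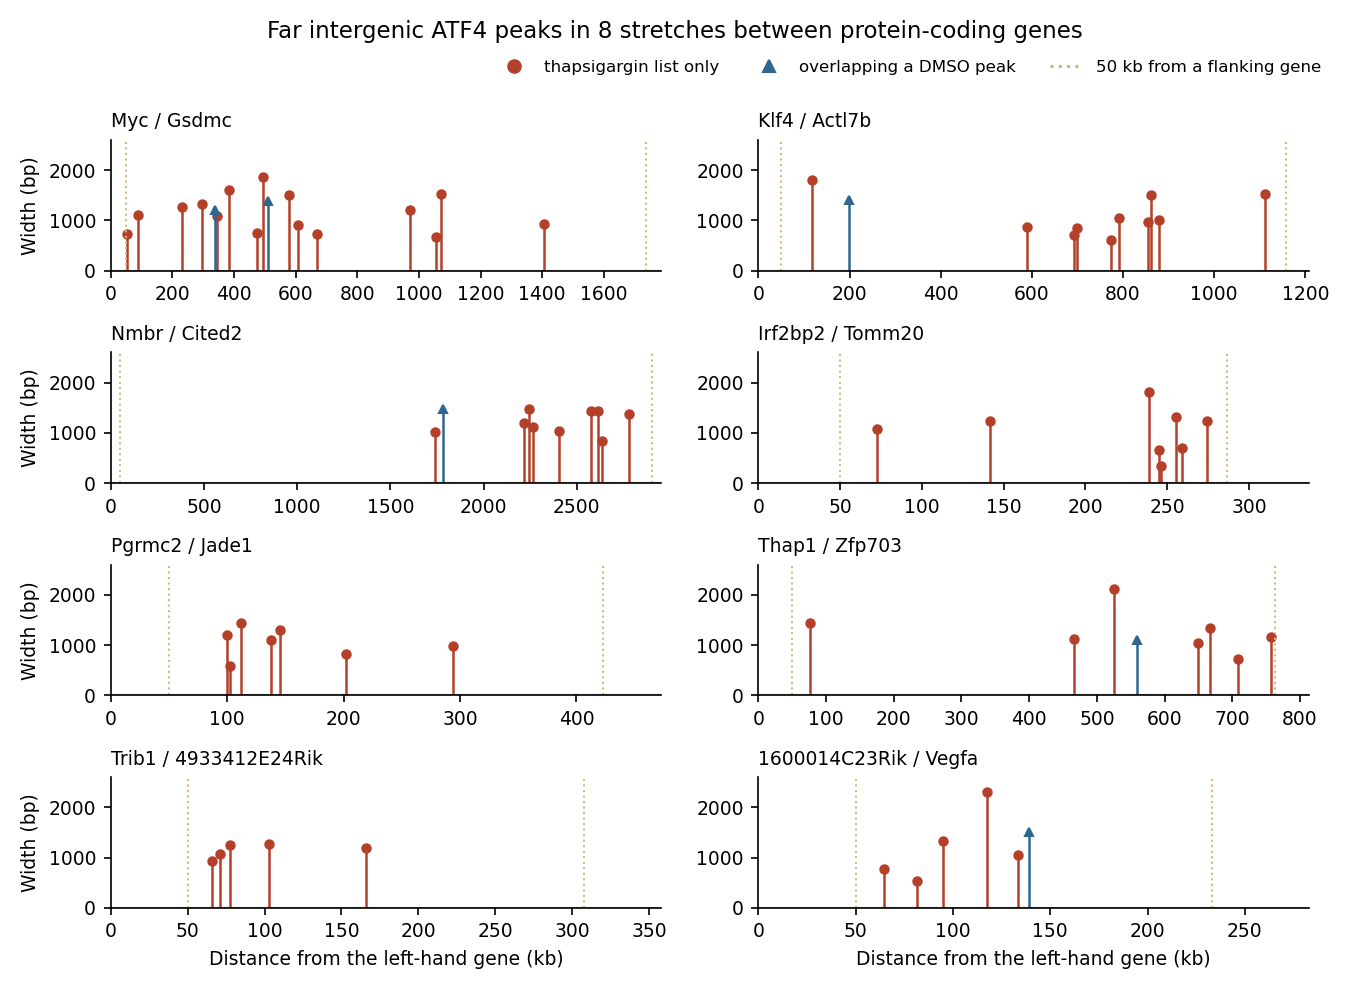
Far intergenic ATF4 peaks in 8 stretches between the 2 protein-coding genes named over each panel. The x axis is the distance from the left-hand gene in kb, the height of each stem the peak width in bp, red circles are peaks of the thapsigargin list alone, blue triangles peaks that overlapped a DMSO peak, and dotted lines mark 50 kb from a flanking gene. The 15 sites between Myc and Gsdmc and the 8 between Irf2bp2 and Tomm20 lie unevenly along their stretches.

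The 10 widest sites measured 2118 to 2449 bp. The widest lay 97.7 kb from Pard3b, a cell polarity gene (chr1:61539695-61542143). Next were sites 139 kb from Adgrl4 (2406 bp), an adhesion receptor gene, 532 kb from Nr2f2 (2359 bp), which encodes the nuclear receptor COUP-TFII, and at Dleu2 near Kcnrg. One of 2333 bp lay between Phlpp1 (67.6 kb), a phosphatase gene that counters AKT, and Bcl2 (76.3 kb), the gene of the anti-apoptotic protein. The others were near 1600014C23Rik and Vegfa, Bcl2l11 (134 kb), Gja1 (393 kb, 2262 bp), the gene of connexin 43, the chromatin remodeller gene Chd7 (75.9 kb, 2176 bp) and Zfp703 (287 kb, 2118 bp).

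The 5 most distant sites were 1182 to 1555 kb from any protein-coding gene. They lay on the Slc10a2 side (1555 kb) and the Efnb2 side (1377 kb) of the same stretch of chromosome 8, and nearest to Zeb2 (1326 kb), Cited2 (1215 kb) and Zpld1 (1182 kb). The site in the Zeb2 desert was 2077 bp wide and was centred 407 bp from the end of the lncRNA gene Gm13470, so it was remote from coding genes and not from transcripts. Zeb2 encodes a repressor of epithelial genes.

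In width the sites resembled other peaks of the thapsigargin list alone. Their median was 1005 bp, with quartiles of 761.0 and 1277 bp and a range of 313 to 2449 bp, against 998.0 bp for thapsigargin-only intergenic peaks at 1 to 50 kb from genes and 1000 bp for thapsigargin-only peaks inside genes. The share wider than the median of the list was 45.9% against 45.4% in the nearer class, a difference of 0.429 points (Newcombe interval -3.44 to 4.31). The equally distant peaks over DMSO peaks had a median of 1368 bp, and 77 of 88 (87.5%) were wider than the median of the list. That difference of -41.6 points (interval -47.8 to -32.6) comes from the same pair of lists that chose the sites, so it is a description. The widest of those 88 were near Gypc (2476 bp), Nap1l1 (2253 bp), Il3ra (2222 bp), Prl5a1 (2176 bp) and Serp2 (2133 bp).

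**Figure D4:**
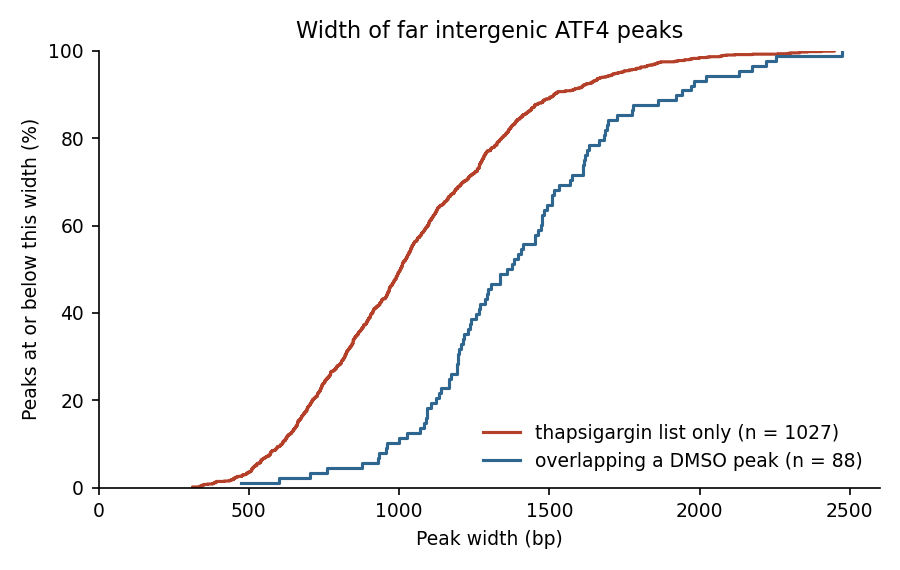
Cumulative share in percent of far intergenic ATF4 peaks at or below each peak width in bp. The red line shows the 1027 peaks of the thapsigargin list alone, with a median of 1005 bp, and the blue line the 88 that overlapped a DMSO peak, with a median of 1368 bp.

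The DMSO list held 803 peaks, and the share of far intergenic DNA within a given distance of a DMSO peak was not computed. From the sites the nearest DMSO peak was at a median distance of 1017 kb. Of the 1027 sites 101 (9.83%, interval 8.16% to 11.8%) had one within 100 kb, 11 of them within 10 kb. Of all thapsigargin-only peaks 13.9% had one within 100 kb, and of those at 1 to 50 kb from genes 14.9% (245 of 1642) did, a difference of -5.09 points (interval -7.55 to -2.52). Peaks over DMSO peaks were themselves denser nearer to genes, with 0.305 per Mb at 20 to 50 kb and 0.182 at 50 to 100 kb. The lower share therefore cannot be told apart from position. The 3 sites near Gadd45a, a growth arrest gene of the stress response, belonged to those 101, with DMSO peaks 18.5 to 56.9 kb away. So did 7 of the 9 sites of the Myc run, at 5.60 to 95.7 kb, while its other 2 were 106 and 158 kb from a DMSO peak.

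The nearest protein-coding genes of the sites numbered 701, and 500 of them were nearest to a single site. The 10 gene lists together held 109 sites (10.6%, interval 8.87% to 12.6%) against 10.4% of the DNA, a share inside that interval. The lists were chosen with earlier results of these data known, so their counts beside DNA shares or matched density describe and do not test. Their intervals treat neighbouring sites as independent. Of the 10, that of transcription factors of mesenchyme and development was met most often, with 56 sites (5.45%, interval 4.22% to 7.01%) at 35 of its 69 genes that border such DNA, where 2.71% of the DNA lies. At the density of sites at the same distances and stretch lengths, 28 would fall there. The widest were those near Nr2f2, Zeb2, Klf4 (1803 bp, 119 kb), Prdm1 (1732 bp, 227 kb) and Irx3 (1709 and 1707 bp, 199 and 207 kb). Klf6 and Gata3 were nearest to 4 sites each, and Sox9, which sets cartilage fate and has a long enhancer desert, to 2, of 980 and 1005 bp, 3 genes chosen after their values were seen.

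The list named for regulators of the integrated stress response, which also holds Trib1, Trib2 and Gadd45a, had 13 sites (1.27%, interval 0.741% to 2.15%). It has 0.183% of the DNA, which would hold 2.29 at matched distances and stretch lengths. These 13 came from 4 of the 9 genes of the list that border such DNA: Trib1 had 5, Cebpb and Gadd45a 3 each, and Trib2 2. The sites of Trib1 lay in the same run, as did those of Cebpb and those of Gadd45a. The count is thus one of a few loci and not of the list as a whole. Cebpb encodes the ATF4 partner C/EBPβ, and its sites of 783, 1042 and 967 bp lay 75.2, 87.1 and 99.4 kb away, the last 2 at the ends of the lncRNA genes Gm14321 and Gm32513. The 1042 bp site is the one whose promoter window carries the cyclic AMP response element shown above. Trib2 had sites of 1275 and 959 bp at 260 and 184 kb.

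Genes of matrix and adhesion had 16 sites (1.56%, interval 0.961% to 2.52%) against 0.475% of the DNA, or 5.99 at matched density. Adamts5, a matrix protease gene, had 4 of them, the widest of 2073 bp at 193 kb. Thbs2 (1362 bp, 54.5 kb), Cd44 (1355 bp, 57.3 kb), Tnc (1158 bp, 278 kb), Thbs1 (1102 bp, 229 kb) and Postn (1049 bp, 89.4 kb) followed. Secreted signals had 14 sites (1.36%, interval 0.814% to 2.28%) against 0.618% of the DNA, or 9.33 at matched density. The ratio to matched density was 1.5 with an interval of 0.820 to 2.52, which includes 1. They included 4 near the cytokine gene Tslp and sites near Cxcl12 (1373 bp, 256 kb), Il6 (1325 bp, 65.1 kb), Inhbb (1269 bp, 106 kb) and Tgfb2 (1126 bp, 54.0 kb).

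Some lists held 2 sites or fewer. Amino acid metabolism and transport had 2 sites (0.157% of the DNA), near Bcat1, a branched-chain transaminase gene (1636 bp, 91.2 kb), and Psat1 of serine synthesis (857 bp, 447 kb). Genes of ER folding and stress sensing had 0 (0.162% of the DNA), and only 2 of the 19 border such DNA. The list named for AP-1 and MAF factors, which also holds Nfil3, had 2, near Jun (1277 bp, 53.7 kb) and Nfil3 (995 bp, 51.0 kb). Genes of skeletal muscle identity had 0 and markers of other cell types 1, near Ptprc (977 bp, 311 kb), with 0.137% and 0.160% of the DNA. For these lists 0.773 to 1.92 sites would be found at matched density, so these data cannot show a lack.

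Genes of neural adhesion and axon guidance had 5 sites (0.487%, interval 0.208% to 1.13%) against 5.70% of the DNA, where 27.1 would fall at matched distances and stretch lengths. The 5 were near Cdh2 (1039 bp, 229 kb), Cdh10 (631 bp, 300 kb), Flrt2 (587 bp, 60.9 kb) and Pcdh18 (558 and 456 bp, 99.2 and 68.4 kb). With both genes that flank a stretch counted in place of the nearer one, the values were 91 sites (8.86%) against 5.21% of the DNA for developmental factors and 8 (0.779%) against 10.3% for neural adhesion genes, with the same direction as before. Of thapsigargin-only intergenic peaks at 1 to 50 kb from genes, 1.34% were nearest to developmental factors and 0.548% to genes of the stress response list. For matrix and adhesion, secreted signals and neural adhesion the shares were 1.71%, 0.365% and 0.0609%. The DNA share at that distance was not computed. Of the 88 equally distant peaks over DMSO peaks, these lists in the same order held 3, 0, 2, 0 and 2.

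**Figure D5:**
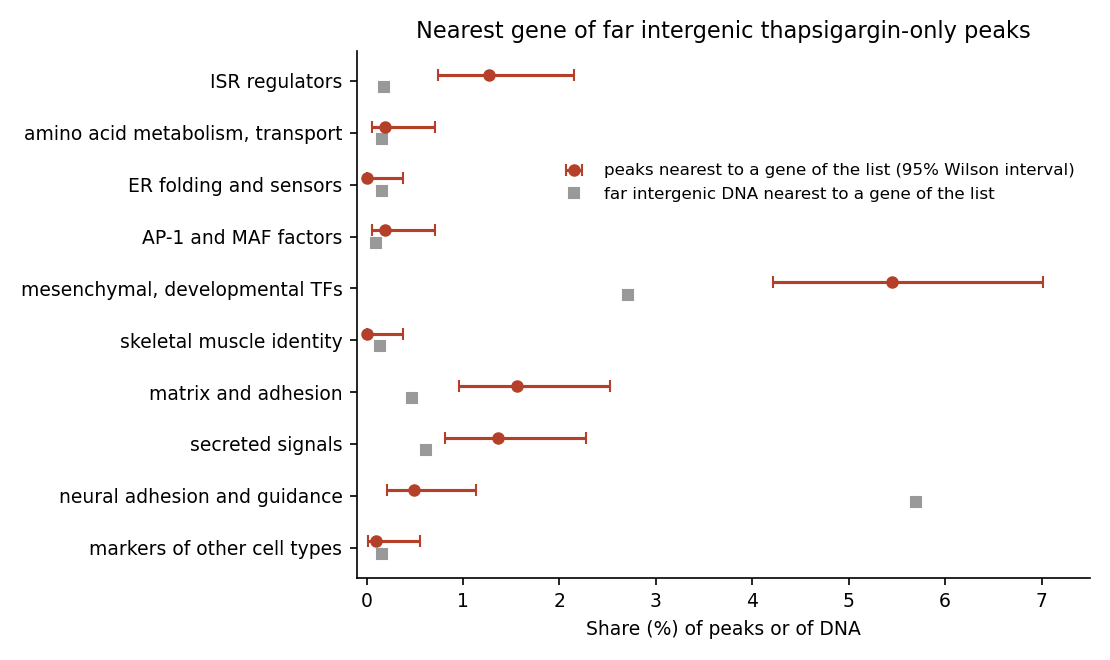
Share in percent of the 1027 sites whose nearest protein-coding gene is in each of 10 gene lists (red, with 95% Wilson intervals), and share of intergenic DNA over 50 kb from genes whose nearest gene is in that list (grey squares). Developmental factors stand at 5.45% of sites against 2.71% of the DNA, and neural adhesion genes at 0.487% against 5.70%.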

How the data were processed

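The authors deposited 1 ATF4 peak list per treatment, with chromosome, start and end and without scores. Per the submitters' processing notes, MACS2 2.2.7.1, Bowtie2 and Trim Galore 0.6.10 were used with mm10. Not given in the sources used here are the peak threshold, a control library and how replicates were handled. It is not stated if the 2 replicates were separate cultures.

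Gene positions came from a RefSeq table (GRCm38.p6) that places 21631 protein-coding genes on the autosomes and X. Peaks overlapped when they shared 1 bp. Distances run from the peak centre to a gene end. Intergenic DNA was counted up to the outermost annotated gene. Sites at matched density are the base pairs nearest to a list's genes times the density of sites at the same distance and stretch length. The planned motif search in whole peaks was not run, as no genome was used here; the search in RefSeq promoter windows was chosen afterwards.

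The sites and lists were chosen with earlier results of these data known. By rule, the text names the 10 widest and 5 most distant sites, the 5 largest runs (7 with ties at 5 sites), 10 sites at non-coding gene ends, up to 6 sites per list, 3 sites on each side of the limit and the 5 widest distant peaks over DMSO peaks. The scripts, tested on simulated data, ran in Python 3.11.15 with scipy 1.17.1, pandas 2.3.3, numpy 2.4.6 and matplotlib 3.10.9.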

Additional observations from a re-analysis of the deposited data

How the results depend on the processing

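No paired analysis was possible because each treatment with its 2 replicates is represented by 1 list without values per replicate, so no replicate could be left out either. A limit of 20 kb gave 1631 sites, 1.37 per Mb, of which 9.63% had another thapsigargin peak within 10 kb. A limit of 100 kb gave 594 sites and 0.794 per Mb, with 5.72% for that neighbour and also 5.72% at non-coding gene ends, where 7.79% of the main set lay. Counting all gene types left 240 sites, at 0.563 per Mb against 1.08 in the main set. Most sites thus lie within 50 kb of some annotated non-coding gene, but so does much of the DNA, as the density fell less than the count. The wider part of the list gave 472 sites, 0.496 per Mb, a median width of 1294 bp and 4.87% at non-coding gene ends. Counted up to 500 bp from an end that share was 4.28%, and up to 5 kb it was 19.5%. A DMSO peak was found within 50 kb of 5.06% and within 500 kb of 32.1% of the sites. Fewer or more sites and matches follow from how these settings are built. The other 41 of 58 values, among them those for the distance from the peak edge, a DMSO gap of 1 or 10 kb and merged peaks, stayed within the interval or within 1.5 times the main count. Of 80 values for gene lists 27 differed from the main count by more than 1.5 times. Read depth, unknown here, limits which sites were called at all.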

Other observations

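Of the genes outside the lists, Myc was nearest to the most sites with 11, before Cited2 with 9 and Actl7b with 8. Efcab1, Pgrmc2, Tomm20 and Zfp703 were nearest to 6 each. Eea1, an endosome tethering factor gene, Reep3, which encodes an ER membrane protein, Zfp608 and 1600014C23Rik were nearest to 5 each. Genes nearest to 4 sites included Arrdc3, Efnb2, Fgf9, Marcks, Mctp2 and Ncam1. The 5 sites near Eea1 were 1190 to 1997 bp wide at 55.7 to 192 kb.

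Of the 8 sites on chromosome X, 2 were at the X inactivation centre. One of 926 bp (chrX:103481074-103481999) lay inside Xist, the RNA that silences the inactive X chromosome, in its overlap with the antisense gene Tsix, and was centred 1696.5 bp from a gene end. The other, of 978 bp (chrX:103509327-103510304), was centred 3390.5 bp from the end of Jpx, an lncRNA that activates Xist. The widest X-linked site, of 1786 bp, lay 183 kb from Fmr1. These 3 were named after their positions had been seen.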
